A study of Mus musculus with 9 samples.

Results

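Epithelial and muscle microRNAs (miRNAs) were examined in the mouse olfactory bulb, where their levels bear on whether tissue other than bulb was present in the dissected samples. The members were chosen by name, as the probes for mmu-miR-205-5p, mmu-miR-203-3p, mmu-miR-31-5p and mmu-miR-375-3p (epithelial) and for mmu-miR-1a-3p, mmu-miR-133a-3p, mmu-miR-133b-3p and mmu-miR-206-3p (muscle). All 8 had a probe of their own among the 1027 mouse miRNA probes of the array. The mice were ICR males, an outbred strain, 8 weeks old, and 3 arrays came from each of 3 groups. In the group called FA 1 day the mice spent 6 hours of a single day in air with 3 ppm formaldehyde (FA), which irritates the airways, and in FA 7 days they did so for 7 days in a row. The control mice had the same housing and no formaldehyde. The labels number the FA 1 day arrays 1, 2 and 4 and do not state that each array holds 1 animal, so p-values measure only the spread between these samples, which may be technical. Whole bulb RNA was measured, so fewer cells of a type and less RNA per cell cannot be told apart.

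A mature miRNA guides the silencing complex to messenger RNAs that pair with its seed, bases 2 to 8. miR-205 acts in surface epithelia, where together with the miR-200 family it represses the transcription factors ZEB1 and ZEB2. miR-203 represses p63 and accompanies the differentiation of skin keratinocytes, miR-31 is known from keratinocytes and hair follicles, and miR-375 is known from pancreatic islets, where it restrains insulin secretion, and from other neuroendocrine cells. miR-1 and miR-133 are made from shared transcripts in heart and skeletal muscle, while miR-206 and miR-133b come from 1 cluster that is used in skeletal muscle. They are best known from tissues other than brain, but miR-133b has also been described in dopaminergic neurons of the midbrain.

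For 5 of the 8 members a mature sequence was taken from RefSeq (build GRCm38.p6). These are shown, 5′ to 3′ with the seed in capitals, because the seed separates the epithelial members among them from one another.
mmu-miR-205-5p, chr1:193507503-193507524, minus strand: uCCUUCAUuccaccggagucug
mmu-miR-203-3p, chr12:112130927-112130948, plus strand: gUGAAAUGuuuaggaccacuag
mmu-miR-31-5p, chr4:88910614-88910635, minus strand: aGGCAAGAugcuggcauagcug
mmu-miR-133b-3p, chr1:20682834-20682855, plus strand: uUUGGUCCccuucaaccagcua
mmu-miR-206-3p, chr1:20679055-20679076, plus strand: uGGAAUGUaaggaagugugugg
The 5 seeds all differ. Those of miR-205, miR-203, miR-31 and miR-133b occurred under 1 name each among the 1679 mature names of the table, and that of miR-206 under 3 (also miR-6349 and miR-6382). These counts leave out miR-133a-3p and miR-1a-3p, which share the seeds of miR-133b-3p and miR-206-3p and were not among the sequences used here. The miR-206-3p and miR-133b-3p sequences start 3779 bases apart on the same strand. miR-133a-3p and miR-133b-3p are near-identical in sequence, so signal on either probe of the miR-133 pair may include the other miRNA.

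On each array the signal of a probe is given here as foreground minus background, the median over its 4 spots in intensity units, and a probe counted as detected at 30 or more. Between 400 and 517 mouse probes were detected per array, and 459 probes, each detected throughout at least 1 group, were tested. Of 1108 empty spots, 0 to 0.903% reached 30 on an array. Of the 57 probes for miRNAs of mouse viruses, however, 8 to 20 did, with 20 on control replicate 2, so detection does not by itself show that the named miRNA was present. Control replicate 2 and FA 7 days replicate 3 stood apart from the other 7 arrays. Measured against the mean of those 7, each array left out of its own mean, they deviated by 0.915 and 0.684 (root mean square, log2 scale), and the others by 0.265 to 0.471. All 11 neuron miRNAs on a chosen list, among them miR-124-3p and miR-9-5p, were detected on all 9 arrays. The probe for miR-122-5p, the main miRNA of liver, stayed between 0 and 20.5 and was detected on none.

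The epithelial members had signal on most arrays, while of the muscle members miR-133b-3p alone was detected throughout. miR-203-3p, miR-31-5p, miR-375-3p and miR-133b-3p were detected on all 9 arrays, miR-205-5p and miR-133a-3p on 6, miR-1a-3p on 3 and miR-206-3p on 0. The first 6 of these passed the filter for testing and the last 2 did not. miR-205-5p passed it through the FA 1 day arrays alone and miR-133a-3p through the control arrays alone, in each case the group where it was highest, so their place in the counts of tested probes depends on that filter. The highest value of any member was 271, that of miR-133b-3p on control replicate 2, so the members lie where the offset of the normalization shrinks differences.

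**Figure D1:**
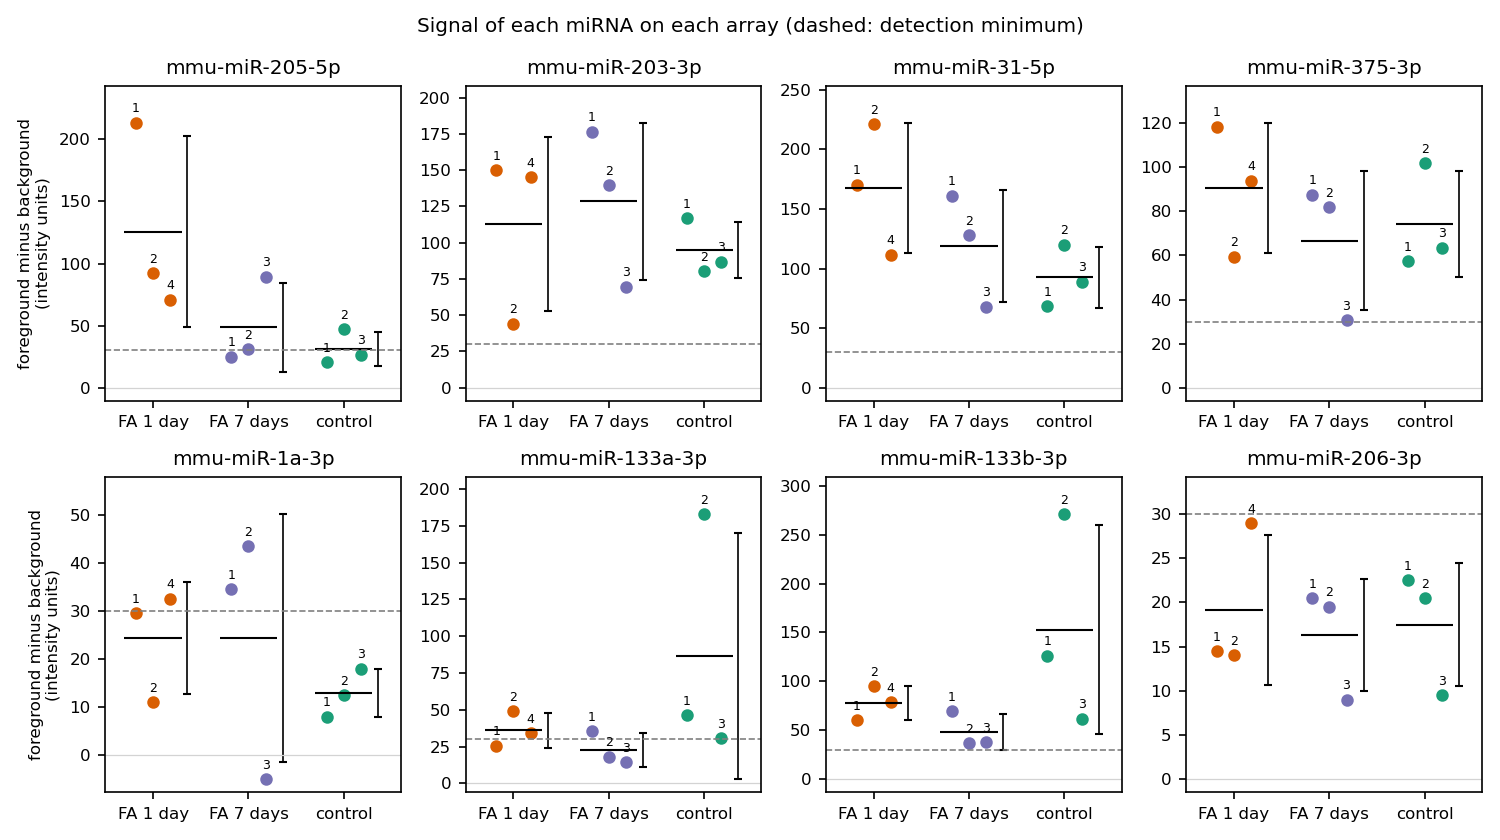
Signal (foreground minus background, intensity units, linear axes that differ between panels) of the 8 miRNAs on each array, with the replicate number above each point, the group mean as a line and its SD as a bar. miR-205-5p is above the dashed detection minimum of 30 on all 3 FA 1 day arrays, against 1 of 3 control arrays, and miR-133a-3p and miR-133b-3p have their highest points on control replicate 2.

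miR-205-5p had the widest range among the epithelial members. Its signal was 213.5, 92 and 71 on FA 1 day replicates 1, 2 and 4, against 20.5, 47 and 26.5 on control replicates 1, 2 and 3. On FA 7 days replicates 1, 2 and 3 it was 25, 31 and 89.5. All FA 1 day arrays thus lay above all control arrays, whereas 2 of the FA 7 days arrays lay within the control range. It was detected on 3 of 3 arrays after 1 day, 2 of 3 after 7 days and 1 of 3 in control, an order that rests on the minimum of 30, since at a minimum of 20 it was detected on all 9.

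miR-31-5p was detected everywhere. Its signal ran from 111.5 to 221 after 1 day and from 68 to 161 after 7 days, against 68.5 to 120 in control. In these unnormalized values all 3 groups overlap. After normalization its FA 1 day values of 8.01, 8.05 and 7.45 and its FA 7 days values of 7.64, 7.73 and 7.42 lay above the control values of 7.06, 7.39 and 7.32 on the log2 scale.

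miR-203-3p had normalized log2 values of 7.77, 6.83 and 7.69 after 1 day and 7.77, 7.84 and 7.39 after 7 days, against 7.47, 7.04 and 7.33 in control. The lowest of the 9 values, with a signal of 44, came from FA 1 day replicate 2, the array on which miR-31-5p was highest. miR-375-3p ran from 30.5 on FA 7 days replicate 3 to 118.5 on FA 1 day replicate 1, with 57.5 to 102 on the control arrays. For both, the 3 groups overlapped.

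The muscle pair miR-133b-3p and miR-133a-3p had its highest group means in control. The normalized log2 values of miR-133b-3p were 7.03, 7.29 and 7.11 after 1 day and 6.97, 6.74 and 6.98 after 7 days, against 7.55, 8.34 and 7.06 in control. Those of miR-133a-3p were 6.55, 6.83 and 6.50 after 1 day and 6.64, 6.46 and 6.55 after 7 days, against 6.83, 7.81 and 6.66 in control. In signal, miR-133b-3p ran from 60.5 to 95 after 1 day and from 36.5 to 69.5 after 7 days, against 62 to 271 in control. Both were highest on control replicate 2, which stands apart. On control replicate 3 each lay within the FA 1 day range. miR-133a-3p did so on control replicate 1 as well, with a signal of 46.5 against 49 on FA 1 day replicate 2.

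miR-1a-3p, the most abundant miRNA of heart and skeletal muscle, had a signal of 29.5, 11 and 32.5 after 1 day and 34.5, 43.5 and -5 after 7 days, against 8, 12.5 and 18 in control. It was thus detected on no control array, and on control replicate 2, where the miR-133 pair was highest, it was below the detection minimum, at 12.5. miR-206-3p, the miRNA made with miR-133b in skeletal muscle, had a signal of 14.5, 14 and 29 after 1 day and 20.5, 19.5 and 9 after 7 days, against 22.5, 20.5 and 9.5 in control. Its groups overlapped below the detection minimum.

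The 2 copies of each probe on an array differed more on some arrays than on others. Each miRNA probe had 2 spots in blocks 1 to 18 (first copy) and 2 in blocks 19 to 36 (second copy). Over the tested probes with both copies at 30 or more, the share more than 2-fold apart between copies was 22.2% for FA 1 day replicate 2 and 17.7% for FA 7 days replicate 3. For the other 7 arrays it was 0 to 11.5%. On FA 1 day replicate 2, miR-205-5p had 178 in its first copy and 48.5 in its second, a 3.67-fold difference that exceeded the one of 96.5% of the probes there. miR-31-5p had 322 and 112 on the same array, 2.88-fold apart. miR-203-3p ran the other way there, with 34 and 62. On FA 7 days replicate 1, where miR-205-5p was not detected at a median of 25, its copies had -5.5 and 60. That call thus joins a copy without signal and a copy above the minimum. On control replicate 1 miR-31-5p had 41.5 and 94, a difference larger than for 98.4% of the probes. miR-133b-3p was even by comparison, at most 1.43-fold apart on any array, and on control replicate 2 its copies had 267.5 and 283.5, 1.06-fold apart.

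**Figure D2:**
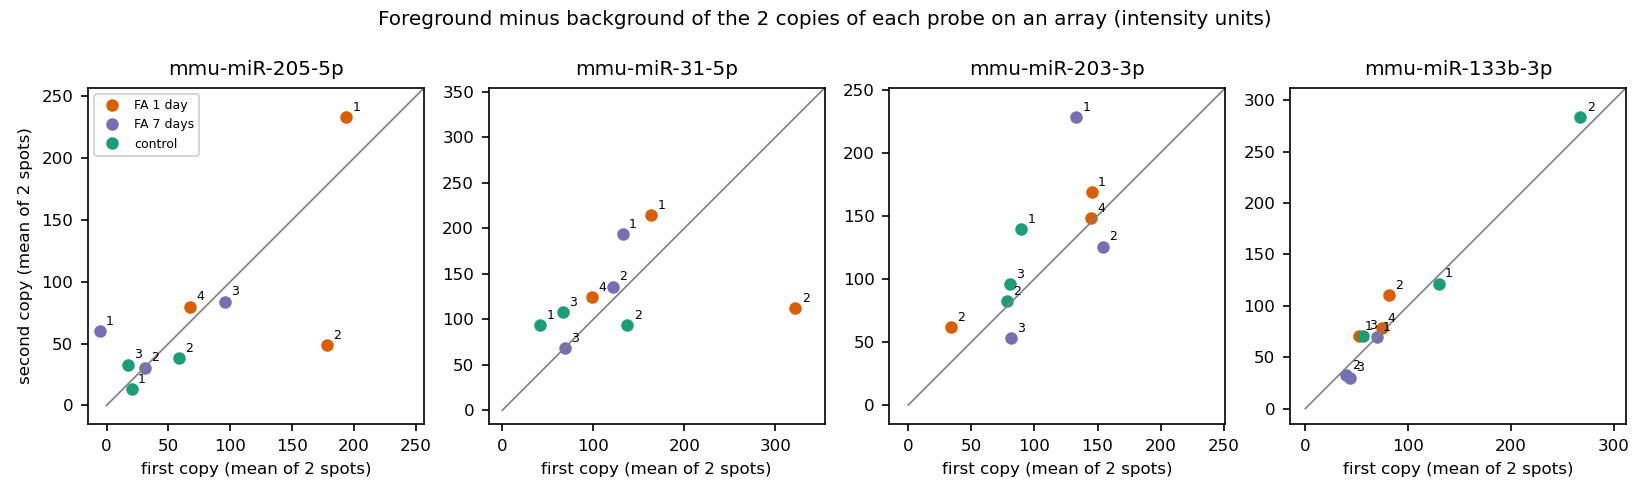
Mean signal of the second copy against that of the first copy of 4 probes (2 spots each, intensity units), 1 point per array with its replicate number and the diagonal of equal copies. FA 1 day replicate 2 lies far below the diagonal for miR-205-5p (178 and 48.5) and miR-31-5p (322 and 112), while control replicate 2 lies near it for miR-133b-3p (267.5 and 283.5).

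The first comparison asks whether 1 day of formaldehyde was accompanied by a change of these miRNAs. None of the 6 tested members passed, nor did any other probe (0% of 459 with limma at an adjusted p under 0.05). Without adjustment 2 of the 6 members, miR-205-5p and miR-31-5p, had a p under 0.05, against 6.1% of all tested probes. The same 2 were higher without overlap between the groups, where the share over all tested probes was 10.7%, and no member was lower without overlap, against 4.14%. Because miR-205-5p was tested only through being detected after 1 day, its part in these counts is a description. It averaged 7.57 ± 0.54 after 1 day and 6.54 ± 0.15 in control (log2, SD, n = 3 each), a difference of 1.03 ± 0.35 (SE) with a 95% interval of 0.23 to 1.82 (limma, adjusted p = 0.643). Without FA 1 day replicate 1, its brightest array, the difference was 0.72, and with the authors' deposited ratios, which carry no offset for dim probes, it was 1.83.

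miR-31-5p averaged 7.83 ± 0.34 after 1 day and 7.26 ± 0.17 in control, a difference of 0.58 ± 0.21 with a 95% interval of 0.09 to 1.06 (limma, adjusted p = 0.670). It was 0.77 from the first copies and 0.38 from the second copies of the probes. miR-203-3p and miR-375-3p differed by 0.15 ± 0.28 and 0.17 ± 0.21, and both turned negative without normalization between arrays. The muscle pair lay on the other side of 0, miR-133b-3p at -0.51 ± 0.30 and miR-133a-3p at -0.47 ± 0.29, with intervals of -1.18 to 0.17 and -1.13 to 0.19. Without control replicate 2, which stands apart, these were -0.16 and -0.11, without control replicate 3 they were -0.82 and -0.72, and without normalization between arrays -0.77 and -0.86.

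The second comparison asks the same after 7 days. Again none of the 6 members passed (0% of 459 probes did), and miR-133b-3p was the 1 member with an unadjusted p under 0.05, against 4.36% of all tested probes. It averaged 6.90 ± 0.14 after 7 days and 7.65 ± 0.64 in control, a difference of -0.76 ± 0.30 with a 95% interval of -1.43 to -0.08 (limma, adjusted p = 0.711). miR-133a-3p averaged 6.55 ± 0.09 and 7.10 ± 0.62 in the same groups, a difference of -0.54 ± 0.29 (-1.21 to 0.12). In normalized values all FA 7 days arrays lay below all control arrays for both, and the share over all tested probes was 1.53%. In signal the groups overlapped, miR-133b-3p with 69.5 on FA 7 days replicate 1 and 62 on control replicate 3, and miR-133a-3p with 35.5 and 30.5 on the same arrays. Since miR-133a-3p was tested only through being detected in control, its separation is a description. The 2 probes can share signal, so they are not separate observations. Without control replicate 2 the differences were -0.41 and -0.18, without control replicate 3 they were -1.08 and -0.80, and with the authors' deposited ratios -1.48 and -1.60.

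Of the epithelial members, miR-31-5p was higher without overlap after 7 days, against 8.71% of all tested probes, by 0.34 ± 0.21 (-0.14 to 0.83), and by 0.10 without normalization between arrays. miR-203-3p differed by 0.39 ± 0.28 (-0.25 to 1.02), and by 0.14 without normalization between arrays. miR-205-5p differed by 0.40 ± 0.35 (-0.40 to 1.19), and by 0.05 without FA 7 days replicate 3, which stands apart and holds its highest value of the group. miR-375-3p differed by 0.03 ± 0.21 (-0.45 to 0.50). The 2 exposures share their control arrays, so what they have in common is not independent.

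**Figure D3:**
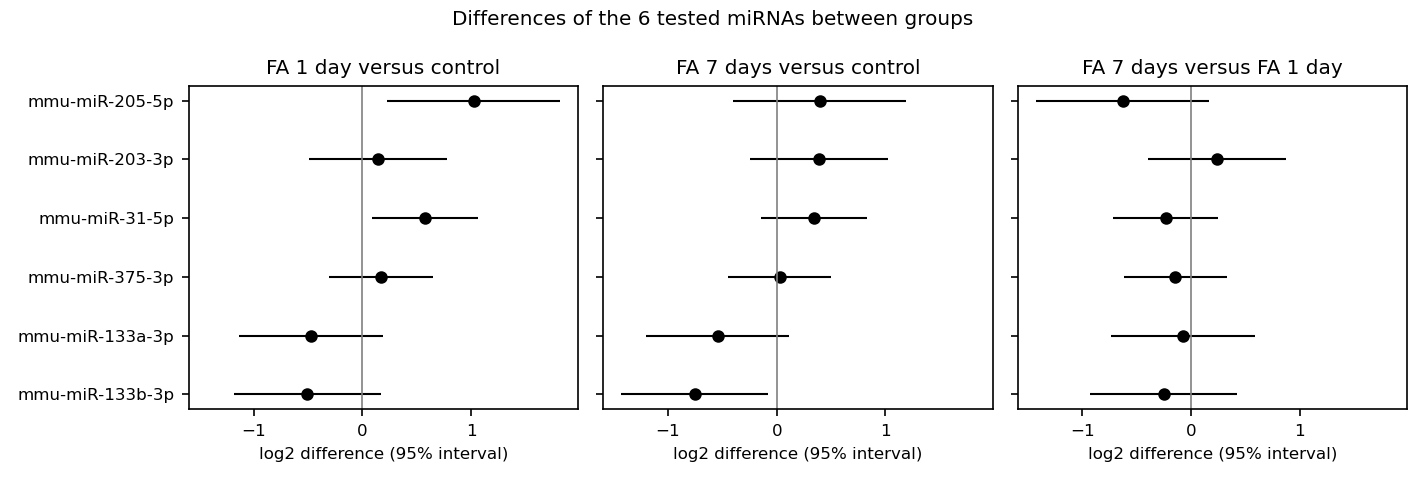
Log2 differences of the 6 tested miRNAs with 95% intervals from limma, in 3 panels for the 3 comparisons, positive where the first-named group is higher. The intervals of miR-205-5p (0.23 to 1.82) and miR-31-5p (0.09 to 1.06) in FA 1 day versus control and of miR-133b-3p (-1.43 to -0.08) in FA 7 days versus control do not reach 0, and none of these passed after adjustment.

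The last comparison sets the longer against the shorter exposure. None of the 6 members passed, as for all other probes (0%), and none had an unadjusted p under 0.05, against 8.28% of all tested probes. miR-205-5p averaged 6.94 ± 0.61 after 7 days and 7.57 ± 0.54 after 1 day, a difference of -0.63 ± 0.35 (-1.43 to 0.17). It was -0.33 without FA 1 day replicate 1 and -0.99 without FA 7 days replicate 3, and -0.92 from the first copies of the probe against -0.28 from the second. miR-133b-3p was lower without overlap, by -0.25 ± 0.30, against 8.28% of the probes. No member was higher without overlap, against 11.8%. The other 4 had differences of -0.24 to 0.24.

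The spread between replicates was wide for miR-205-5p and narrow for miR-31-5p and miR-375-3p. The pooled SD within groups was 0.476 for miR-205-5p, larger than for 72.1% of the tested probes, and 0.237 and 0.228 for miR-31-5p and miR-375-3p, larger than for 23.7% and 20.9%. miR-203-3p, miR-133a-3p and miR-133b-3p had 0.357 to 0.388, against a median of 0.345 over all tested probes.

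Whether members of 1 tissue varied together was described over the 9 arrays for the 15 pairs of the 6 tested members. The pair miR-133a-3p and miR-133b-3p alone passed, with Pearson r = 0.960 (exact permutation p = 0.000794, adjusted over the 15 pairs 0.0119) and Spearman rho = 0.762 (exact permutation p = 0.0216, adjusted 0.156). Without the 2 arrays farthest from the median of miR-133a-3p, FA 1 day replicate 2 and control replicate 2, r was 0.845. Without both arrays that stand apart it was 0.832, and the pair no longer passed (adjusted exact permutation p = 0.127, n = 7). Since either probe of this pair may include signal of the other miRNA, its r cannot show whether the 2 miRNAs varied together. No pair among the 4 epithelial members passed. Their r ran from -0.04, for miR-205-5p with miR-203-3p, to 0.63, for miR-205-5p with miR-31-5p (adjusted exact permutation p = 0.261). In deviations from the group means, r of miR-205-5p with miR-31-5p was 0.19. That of miR-203-3p with miR-375-3p was 0.67 in such deviations, against 0.54 otherwise. Between miR-203-3p and miR-31-5p r was -0.00, 0.73 without FA 1 day replicate 2 and control replicate 2, and -0.14 without both arrays that stand apart. Over all pairs of 458 tested probes, leaving out 1 probe that is constant after normalization, 90% of r lay between -0.76 and 0.79. All these values share array effects and are not independent of each other.

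The tested probes most like each member over the 9 arrays were named by r alone. For miR-205-5p they were miR-486-5p (whose probe also matches miR-3107-5p), miR-466f-5p and miR-214-3p, at r of 0.80 to 0.82 (miR-214-3p is on the mesenchyme list, miR-486-5p on the muscle list). For miR-31-5p they were miR-339-5p, miR-199b-5p and miR-148a-3p, at 0.86 to 0.92, and for miR-203-3p miR-24-2-5p, miR-338-3p and miR-434-5p, at 0.83 to 0.92. For miR-375-3p they were miR-467b-5p, miR-183-3p and miR-466a-3p (whose probe also matches miR-466e-3p), at 0.69 to 0.86. miR-133a-3p lay closest to miR-208a-5p (0.97), the second arm of a heart miRNA hairpin, and miR-133b-3p to miR-296-5p (0.97). Both were also close to miR-3102-3p (0.95 and 0.96) and to each other.

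The second arms of the member hairpins were read by 9 further probes, of which 6 were detected on no array. A hairpin yields 2 arms, and usually 1 of them accumulates. The miR-31-3p probe was detected on 5 arrays, at 66, 22.5 and 50 after 1 day and 46.5, 33 and 0 after 7 days, against 18, 15 and 30 in control. On FA 1 day replicate 2, where miR-31-5p was highest, miR-31-3p was not detected. The miR-375-5p probe had 25, 66 and 61.5 after 1 day and 28, 15 and 8.5 after 7 days, against 35, 383.5 and 19 in control. Its value on control replicate 2 was thus far above that on any other array, while miR-375-3p was at 102 there, against 118.5 on FA 1 day replicate 1. The miR-1a-1-5p probe was detected on control replicate 2 alone, at 66, and reached 29 on FA 1 day replicate 2. The following 3 second arms are shown because 2 of them were detected on control replicate 2 and the third was not.
mmu-miR-375-5p, chr1:74900696-74900717, minus strand: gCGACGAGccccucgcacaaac
mmu-miR-1a-1-5p, chr2:180389057-180389079, plus strand: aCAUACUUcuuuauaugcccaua
mmu-miR-206-5p, chr1:20679017-20679039, plus strand: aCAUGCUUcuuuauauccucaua
In miR-375-5p 15 of 22 bases are G or C, against 7 of 23 in miR-1a-1-5p and 7 of 23 in miR-206-5p. The miR-1a-1-5p and miR-206-5p sequences differ at 3 of 23 positions, and the miR-206-5p probe stayed at 10 or less on every array.

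**Figure D4:**
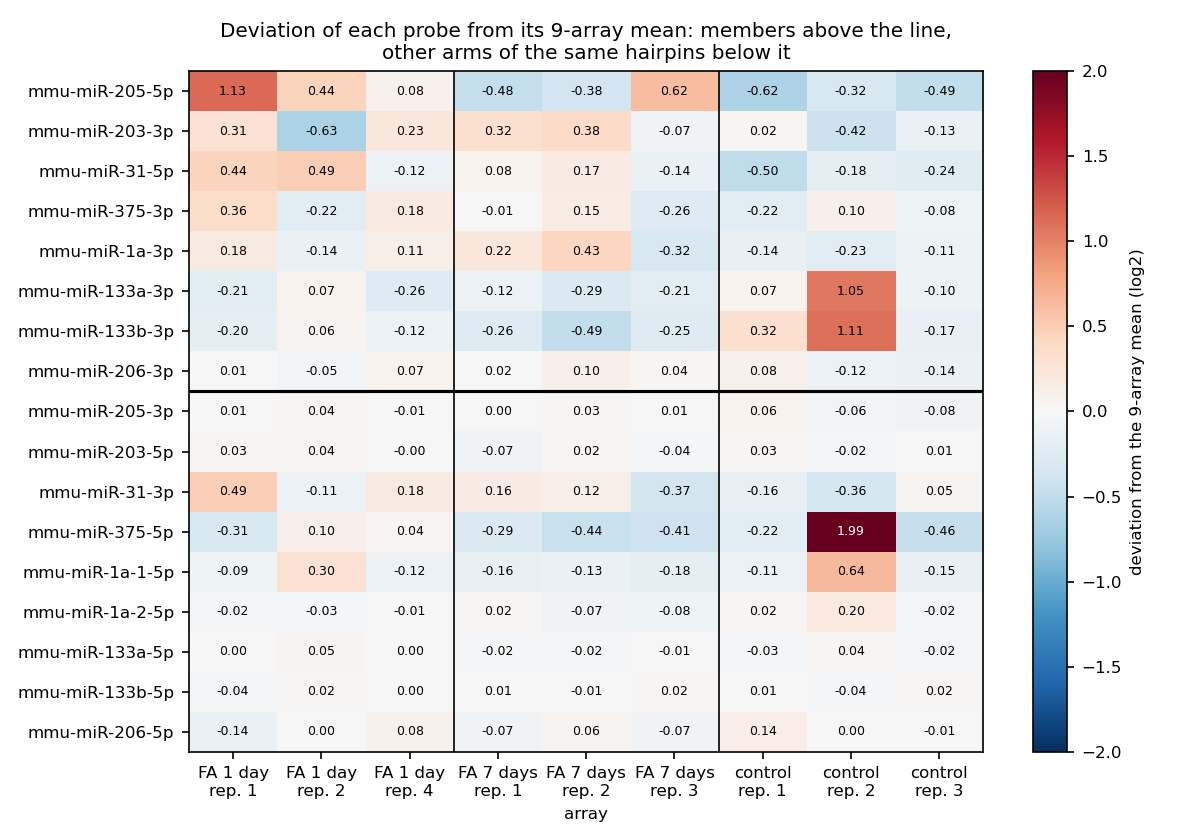
Deviation of each probe from its mean over the 9 arrays (normalized log2, red above and blue below), with the 8 miRNAs above the line and the second arms of their hairpins below it. On control replicate 2 the deviation is 1.99 for miR-375-5p, 1.11 for miR-133b-3p and 1.05 for miR-133a-3p, and on FA 1 day replicate 1 it is 1.13 for miR-205-5p.

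Other muscle miRNAs were mostly not detected, with miR-208a-5p and a few broadly expressed ones as exceptions. Of 17 probes on this list, which includes second arms of the member hairpins, 10 were detected on no array, among them those for miR-499-5p and miR-499-3p, known from heart and slow muscle, miR-208a-3p, known from heart, and miR-1b-3p. The 3 detected on all arrays were those of miR-378 (2 probes) and miR-486-5p, both also present outside muscle, miR-486-5p in red blood cells. miR-208a-5p was detected on 8 arrays and ranged from 25 to 351, with the highest value on control replicate 2, and miR-208b-3p was detected on 1 array. Among the 4 tested, 0 passed in any comparison. Their median difference was -0.08 in FA 1 day versus control and -0.20 in FA 7 days versus control, against 0.06 and 0.06 over all tested probes. miR-208a-5p differed by -0.86 ± 0.47 and -0.93 ± 0.47 (limma, adjusted p = 0.685 and 0.711) and miR-486-5p by 0.44 ± 0.20 and 0.33 ± 0.20 (adjusted p = 0.670 and 0.711). The summed signal of the list was 1713 to 1958 on the FA 1 day arrays and 1345 to 2441 on the FA 7 days arrays, against 1564 to 2427 on the control arrays. Most of this sum came from the 2 miR-378 probes, at up to 762 and 1094, and from miR-486-5p, at up to 518.

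The brightest of the other epithelial miRNAs were the miR-200 family, miR-183-5p, miR-96-5p and miR-182-5p. Which cells their signal came from was not tested. Of 20 probes, again with second arms of the members, 9 were detected on all arrays, among them the 5 of the miR-200 family, known from epithelia and from olfactory neurogenesis, and miR-183-5p, miR-96-5p and miR-182-5p, known from sensory neurons. Of the miRNAs known from ciliated cells of the airway, miR-449a-5p, miR-449b, miR-449c-5p and miR-34c-3p were detected on none. Those that were detected are miR-34b-3p, on 9 arrays (64.5 to 212), miR-34b-5p, on 8 (14.5 to 205.5), and miR-34c-5p, on 8 (15.5 to 213.5). Of the 12 tested, 0 passed. In FA 1 day versus control 10 lay higher and 2 lower, with a median of 0.18 against 0.06 over all tested probes, and the smallest p belonged to miR-34c-5p (0.59 ± 0.24) and miR-183-5p (0.52 ± 0.21, both adjusted p = 0.670). In FA 7 days versus control 4 lay higher and 8 lower, with a median of -0.16, and in FA 7 days versus FA 1 day 3 lay higher and 9 lower, with a median of -0.32. There the smallest p belonged to miR-34c-5p (-0.87 ± 0.24) and miR-183-5p (-0.76 ± 0.21, both adjusted p = 0.421). The summed signal of the list was lowest on FA 7 days replicate 3, which stands apart, at 34817, against 63632 to 93555 on the other exposed arrays and 57857 to 72461 on the control arrays.

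Markers of mesenchyme, vessel wall and red blood cells were described in the same way. Of 8 tested miRNAs of mesenchyme and vessel wall, 7 lay higher in FA 1 day versus control, and 0 passed. Their median difference was 0.76, against 0.06 over all tested probes. The smallest p belonged to miR-199a-5p, known from mesenchyme (1.20 ± 0.32), and miR-199b-5p (0.72 ± 0.21, both adjusted p = 0.638). miR-199b-5p was detected on the 3 FA 1 day arrays alone and so was tested only through the group where it was high. In FA 7 days versus control 7 lay higher too, with a median of 0.14. The summed signal of the 10 probes was 6022 to 6730 after 1 day and 1428 to 8721 after 7 days, against 2007 to 4987 in control. The lowest sums, 1428 on FA 7 days replicate 3 and 2007 on control replicate 2, came from the arrays that stand apart. The other arrays had 8721 and 7453 after 7 days and 4572 and 4987 in control. Of the 10 probes, miR-10a-5p alone was detected on no array. The sum is of unnormalized signal, and miR-126-3p, at up to 4895, and miR-143-3p, at up to 2782, make up most of it.

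The red blood cell list had 3 probes, miR-451, miR-144-3p and miR-144-5p, of which 2 were detected on all arrays. It summed to 4939 to 9005 after 1 day and 3494 to 8541 after 7 days, against 4357 to 6331 in control, and 0 passed. In FA 1 day versus control both arms of miR-144 lay higher, miR-144-3p by 0.93 ± 0.55 and miR-144-5p by 0.86 ± 0.25 (limma, adjusted p = 0.705 and 0.638). miR-451, with a signal of 3092 to 6940, lay lower. miR-144-5p too was tested only through the FA 1 day arrays. In FA 7 days versus control 1 of the list lay higher and 2 lower, miR-451 by -0.21 ± 0.19. The neuron list had a median difference of -0.00 in FA 1 day versus control and 0.06 in FA 7 days versus control, also with 0 passing. Its smallest p in FA 1 day versus control belonged to miR-7a-5p (-0.39 ± 0.16) and miR-138-5p (-0.45 ± 0.27, limma, adjusted p = 0.670 and 0.710). In FA 7 days versus control it was miR-7b-5p (0.73 ± 0.24) and miR-128-3p (0.68 ± 0.37, both adjusted p = 0.711). The part of vessel wall, blood or other tissue in the values of miR-205-5p and miR-31-5p was not tested.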

How the data were processed

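Per the file headers, the deposited raw values are the intensity of the foreground, with and without the background, for 12312 spots on each of 9 one-colour arrays, and per the labels' protocols total RNA was labelled with Hy3 for Exiqon probes. The sources used here name no scanner. A second deposited table holds the authors' ratio values. For 100% of those listed, a value was within 1% of the probe's median foreground minus background over spots after division by 1 number for the whole array. Normexp in limma (offset 50; R 4.3.3, limma 3.58.1) corrected each spot, the spots of a probe were averaged, and quantile normalization over 1084 miRNA probes and log2 followed. The offset shrinks differences of dim probes, and a shift of most miRNAs cannot be seen.

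With limma, 1 mean per group was fitted over all 9 arrays and tested two-sided, with Benjamini-Hochberg adjustment over 459 probes and a threshold of 0.05. At the median standard error of 0.273 the number of arrays limits the precision. The rule for naming took every member, the second arms of their hairpins, the 3 probes closest to each tested member, and from each marker list the 2 probes with the smallest p. The list probes are not printed for every comparison. Members and lists were chosen with earlier results of these data known. Detection by the mean over spots and fits on 1 copy of each probe were added after seeing the data. No 2 arrays shared more than 10.7% of foreground values, and all were kept. The fits were tested on simulated data with larger changes than those of the members, which does not show how often changes of the members' size would pass.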

Additional observations from a re-analysis of the deposited data

How the results depend on the processing

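With each array left out in turn, 0 to 1 probes passed in FA 1 day versus control and in FA 7 days versus control, the 1 being mmu-miR-3104-3p without control replicate 3, named after its value was seen. In every other setting tried 0 passed in all 3 comparisons, with the replicate block included, where 14, 6 and 16 probes had an unadjusted p under 0.05, against 28, 20 and 38 without it. The deviations of same-numbered arrays correlated at 0.16 and 0.33 in FA 1 day versus control. These correlations were -0.58 to -0.10 in FA 7 days versus control, and 0.26 and -0.00 in FA 7 days versus FA 1 day. The labels do not say whether the replicate numbers pair the arrays, and so few correlations cannot decide it. Among the values of the 18 member differences under the alternatives, 360 kept their direction and their side of the threshold and 15 turned sign. In FA 1 day versus control miR-203-3p was -0.075 without normalization, -0.015 with the deposited ratios and -0.040 with the replicate block, and -0.022 to 0.44 with arrays left out, while miR-375-3p was -0.091 without normalization. In FA 7 days versus control miR-375-3p was -0.22 without normalization, -0.25 with the deposited ratios, -0.014 with the median over spots and -0.070 from the second copies, and -0.071 to 0.13 with arrays left out. In FA 7 days versus FA 1 day miR-31-5p was 0.068 from the second copies and miR-375-3p 0.0099 from the first, and with arrays left out miR-203-3p ran from -0.058 to 0.40 and miR-133a-3p from -0.14 to 0.025. The cause was not tested. Median scaling moved the median of all tested probes to 0.34 and 0.26 in the comparisons with control, from 0.06 in both, and no normalization to -0.11 and -0.09. Relative to these medians miR-205-5p and miR-31-5p stayed above and the miR-133 pair below in FA 1 day versus control.

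A detection minimum of 50 left miR-1a-3p detected on 0 arrays and miR-133a-3p on 1, which then could not be tested. A minimum of 20 put miR-206-3p on 4 arrays and miR-205-5p on 9, and a foreground of at least 1.5 times the background put miR-1a-3p on 5, miR-206-3p on 4 and miR-205-5p on 8. Without both arrays that stand apart 0 of 15 member pairs passed, against 1 with all arrays. Signal over background is the limit for the dim members.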
